A study of Arabidopsis thaliana with 12 samples.

Results

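Glutathione transferase genes of the tau and phi classes were followed in Arabidopsis thaliana seedlings by RNA-seq. The set held 39 of the 27655 genes in the deposited tables. It was taken by gene identifier and consists of the 28 tau genes GSTU1 to GSTU28 and 11 phi genes, GSTF2, GSTF3 and GSTF6 to GSTF14. The tables of both lines listed the same transcript for each of the 39.

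All plants carried, per the labels, the ex1 mutation in EXECUTER1 and a mutant allele of FLU. EXECUTER1 is a plastid protein through which many nuclear genes respond to singlet oxygen, and FLU is a protein that restrains chlorophyll synthesis in the dark. In flu mutants a chlorophyll precursor collects in darkness, and light then makes singlet oxygen from it. The lines compared were flu1-1 ex1 and flu1-5 ex1, 1 line per allele. The FLU allele therefore cannot be told apart from any other difference between the lines or their handling. Seeds had 2 days at 4 °C, and the seedlings grew for 6 days at 22 °C in continuous light. They were then darkened for 4 h and sampled at once (dark) or following 1 h back in light (light), with 3 libraries in each of the 4 groups. Per the file headers, about 100 seedlings were pooled for each replicate. No group had wild-type FLU or EXECUTER1, and none stayed dark for the last 1 h, so singlet oxygen, light and elapsed time cannot be told apart in any change described here. Separate growth of the replicates is not stated, and p-values therefore reflect a spread between samples that may be technical.

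Levels are in TPM (a share of all transcripts, scaled to a fixed total), which is corrected for transcript length and can be compared between genes. The 12 libraries summed to 929954 to 935223 TPM, and 17660 to 18169 genes reached 1 TPM in each. The number of reads behind a TPM value is unknown. FLU transcript stood at 184.3 to 196.9 TPM in the 6 libraries described as flu1-1 ex1 and at 13.2 to 17.0 TPM in the 6 described as flu1-5 ex1. EX1 transcript stood at 37.1 to 42.2 TPM in dark and 49.1 to 52.7 TPM in light in flu1-1 ex1, and at 44.8 to 45.8 and 73.5 to 86.3 TPM in flu1-5 ex1. The sources used here do not say whether ex1 lowers the transcript, so its level does not check that mutation. The genotype field of the labels names flu1-1 for all 12, and the grouping here follows the descriptions. The samples are labelled seedlings, yet 7 of 8 root and root hair markers had means between 0.0885 and 0.806 TPM over the 12 libraries, and EXPA7 and ADF8 were listed at 0 in 1 library each. The 8 root markers summed to 7.17 to 9.87 TPM per library, with overlapping groups. The 4 green tissue markers summed to 37798 to 39177 TPM in dark and 30241 to 31161 TPM in light in flu1-1 ex1, and to 34889 to 35057 and 28150 to 29511 TPM in flu1-5 ex1. The 4 did not move together: in light the mean of LHCB1.3 was 0.626-fold that in dark in flu1-1 ex1 and 0.700-fold in flu1-5 ex1, whereas GLDP1 was 2.20-fold and 1.94-fold, and RBCS1A overlapped between dark and light in flu1-1 ex1. The part of these markers in the results was not tested. In whole seedlings, fewer cells of a type and less RNA per cell cannot be told apart.

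Glutathione transferases join the tripeptide glutathione to reactive, electrophilic molecules such as herbicides, products of lipid oxidation and defence compounds, and some act as peroxidases or as carriers of small molecules. The tau (GSTU) and phi (GSTF) classes make up most of the family in plants, and their soluble enzymes use a serine in the active site. Many of their genes lie in tandem rows and are known for rapid induction by oxidative stress, salicylic acid and foreign chemicals. The glutathione conjugates are carried into the vacuole by ABCC transporters.

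The members covered a wide range of levels. Of the 28 tau genes, 23 averaged 1 TPM or more across all 12 libraries, as did 8 of the 11 phi genes. The most abundant tau gene was GSTU19, an enzyme active on many foreign compounds, with a mean of 724 TPM, followed by GSTU5 with 247 TPM. GSTF10, known as a partner of the receptor-like kinase BAK1, led the phi class with 823 TPM, followed by GSTF2 with 501 TPM, a protein known to bind indole compounds. Means of at least 100 TPM were found for 6 phi genes and 3 tau genes. At the other end, GSTU3, GSTU14, GSTU15, GSTU21, GSTF12 and GSTF13 had means between 0.0145 and 0.481 TPM and were tested in neither line. GSTF12 is known as TRANSPARENT TESTA 19, needed for anthocyanin to reach the vacuole.

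**Figure D1:**
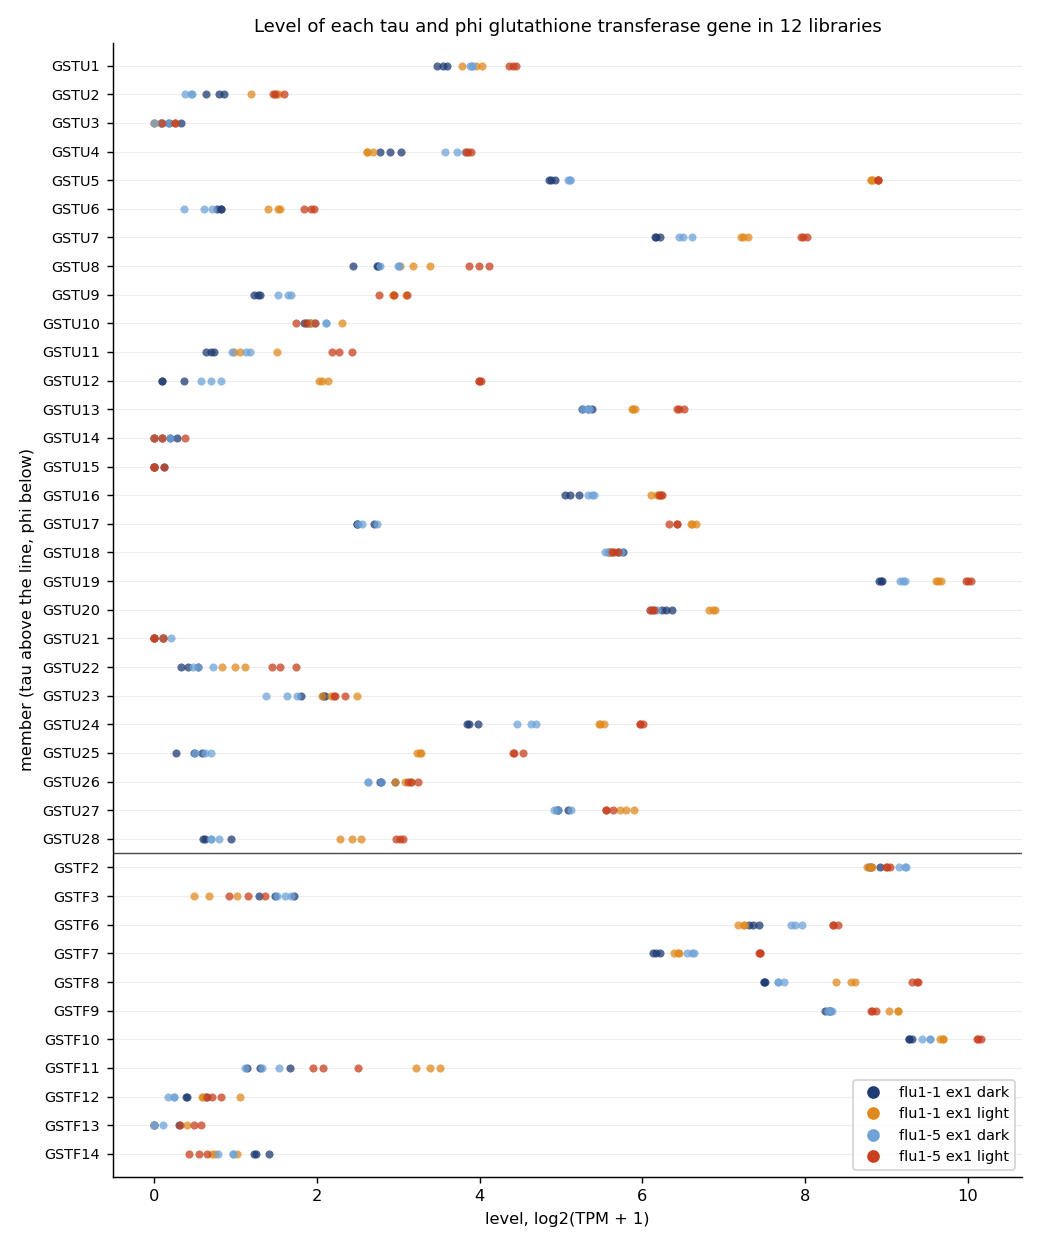
Level of each of the 39 members in 12 libraries, as log2(TPM + 1) on the horizontal axis, with tau genes above the line and phi genes below it. Each point is 1 library, coloured by group. GSTU5 and GSTU17 have their dark and light libraries far apart, and GSTU14, GSTU15 and GSTU21 lie near 0 in every group.

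Tandem clusters were formed among the members, from genes of 1 chromosome whose locus numbers follow each other at a gap of at most 30. By this rule 27 members fall in 9 tandem clusters and 12 stand alone, and the genes of a cluster share 1 strand. Other annotated genes lie inside GSTU1 to GSTU7 (5), GSTU15 with GSTU16 (3) and GSTU13 with GSTU14 (1). In the RefSeq genome TAIR10.1, the longest clusters are GSTU1 to GSTU7 on the minus strand of chromosome 2 (12617936 to 12632538, 7 genes in 14603 bases) and GSTU19 to GSTU23 on the minus strand of chromosome 1 (29467412 to 29488007). GSTU24 to GSTU26 lie on the plus strand of chromosome 1 (5869543 to 5876620). The other clusters are the pairs GSTU11 with GSTU12, GSTU13 with GSTU14, GSTU15 with GSTU16, GSTU17 with GSTU18, GSTF6 with GSTF7 and GSTF9 with GSTF10. The phi genes GSTF5 (AT1G02940) and GSTF4 (AT1G02950) have the locus numbers that follow GSTF6 (AT1G02930). They are outside the set and were not counted in that cluster. Proteins within a cluster were 44.6% to 93.3% identical (40 pairs), against medians of 38.5% over all tau pairs, 39.5% over all phi pairs and 20.5% between tau and phi. Only GSTF6 with GSTF7 (93.3%) and GSTF2 with GSTF3 (92.5%) reached 90%, and for these the estimate may be split between the copies. Another annotated gene overlaps 11 members (GSTU2, GSTU6, GSTU7, GSTU10, GSTU17, GSTU18, GSTF2, GSTF8, GSTF10, GSTF11 and GSTF12), and whether strand was used in the quantification is not given in the sources used here.

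The promoters of 6 tau genes are shown, as the 250 bases upstream of the annotated start, 5′ to 3′ on the gene's strand (RefSeq, TAIR10.1). GSTU5, GSTU17, GSTU12 and GSTU25 are shown because they had the largest rises in light in flu1-5 ex1, and GSTU1 and GSTU7 because theirs hold a pair of TGACG cores. Capitals mark every match, on either strand, to TGACG (the core bound by TGA factors), TTGACC or TTGACT (W-boxes, bound by WRKY factors), CACGTG (the G-box) or GAANNTTC (a heat shock element core); matches may overlap at their ends.
GSTU5: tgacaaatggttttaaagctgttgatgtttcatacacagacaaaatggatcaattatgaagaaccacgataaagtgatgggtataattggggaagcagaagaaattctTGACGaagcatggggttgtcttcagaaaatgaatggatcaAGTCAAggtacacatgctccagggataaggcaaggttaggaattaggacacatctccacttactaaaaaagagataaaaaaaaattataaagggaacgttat
GSTU17: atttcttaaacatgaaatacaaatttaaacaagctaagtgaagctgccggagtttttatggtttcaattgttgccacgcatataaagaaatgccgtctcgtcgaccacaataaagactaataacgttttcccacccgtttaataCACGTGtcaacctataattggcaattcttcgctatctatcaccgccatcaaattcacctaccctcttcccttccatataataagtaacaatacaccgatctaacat
GSTU12: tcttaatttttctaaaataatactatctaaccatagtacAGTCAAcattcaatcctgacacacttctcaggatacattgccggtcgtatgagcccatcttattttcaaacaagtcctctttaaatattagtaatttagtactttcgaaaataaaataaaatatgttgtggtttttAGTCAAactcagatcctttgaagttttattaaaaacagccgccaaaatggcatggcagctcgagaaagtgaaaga
GSTU25: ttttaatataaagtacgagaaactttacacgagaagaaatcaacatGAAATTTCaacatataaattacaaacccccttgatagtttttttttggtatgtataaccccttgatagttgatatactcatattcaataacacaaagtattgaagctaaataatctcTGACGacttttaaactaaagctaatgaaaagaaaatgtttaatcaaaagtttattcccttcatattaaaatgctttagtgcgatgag
GSTU1: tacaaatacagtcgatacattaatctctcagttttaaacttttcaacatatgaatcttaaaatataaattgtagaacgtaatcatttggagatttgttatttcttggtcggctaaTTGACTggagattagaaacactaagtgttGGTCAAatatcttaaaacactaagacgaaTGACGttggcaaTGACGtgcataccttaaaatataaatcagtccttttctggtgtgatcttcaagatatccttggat
GSTU7: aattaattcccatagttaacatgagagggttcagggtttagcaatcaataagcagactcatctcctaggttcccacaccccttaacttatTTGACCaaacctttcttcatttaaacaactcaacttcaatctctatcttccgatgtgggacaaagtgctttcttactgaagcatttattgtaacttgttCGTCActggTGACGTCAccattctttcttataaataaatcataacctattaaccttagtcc
The windows are chr2:12625791-12626040, chr1:3398359-3398608, chr1:26335631-26335880, chr1:5871774-5872023, chr2:12632539-12632788 and chr2:12618900-12619149, on the plus strand for GSTU25 and on the minus strand for the others. The GSTU5 window reaches the annotated gene AT2G29452 and the GSTU7 window reaches AT2G00850. GSTU17 holds 1 G-box, 101 to 106 bases upstream of the start, and none of the other motifs. GSTU12 holds 2 matches to TTGACT, GSTU5 holds 1 TGACG and 1 TTGACT, and GSTU25 holds 1 TGACG and 1 GAANNTTC. The cores of the pair in GSTU1 lie 61 to 77 bases upstream of the start and those in GSTU7 lie 45 to 61 bases upstream on the opposite strand, with 7 bases between the cores in both, the spacing of the as-1 element of TGA factors.

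Over all members, TGACG was found in 14 of 39 windows (35.9%), against 18.6% of the windows of 27443 protein-coding genes. The pair with 7 bases between was found in 2 of 39 (5.13%), GSTU1 and GSTU7, and in 17 of all windows (0.0619%). TTGACC was found in 9 (23.1%, against 12.2%), TTGACT in 15 (38.5%, against 19.1%), CACGTG in 3 (7.69%, against 6.49%) and GAANNTTC in 6 (15.4%, against 9.55%). The tau class held TGACG in 11 of 28 windows and TTGACT in 9, and the phi class in 3 and 6 of 11. The GSTU1 and GSTU7 genes, with the pair, had light changes of 0.38 and 1.07 (log2) in flu1-1 ex1, on either side of the tau median of 0.70. Of the 39 windows, 12 reach another annotated gene, and that of GSTU18, which holds a CACGTG, lies inside GSTU17. The motif counts are matches of letters in 1 window per gene and do not show binding.

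The first comparison asked which members changed when seedlings of each line moved from dark to light. Most rose in both lines. In flu1-1 ex1, 31 members averaged 1 TPM or more, the filter used, and of these 23 rose, 4 fell and 4 did not pass the test (limma on log2(TPM + 1), adjusted p under 0.05). Over all 18042 genes tested in that line, 44.0% were called higher and 28.6% lower. In flu1-5 ex1, 32 members were tested, of which 26 rose and 2 fell, against 38.4% of 18145 genes called higher and 29.3% lower. The median log2 change of the members tested was 0.64 in flu1-1 ex1 and 0.85 in flu1-5 ex1, against 0.12 and 0.054 over all genes. With quantile normalization the all-gene medians moved down by 0.14 and 0.12, to -0.024 and -0.067, and those of the members were 0.45 and 0.80. Of the 30 members tested in both lines, 22 rose in both, against 33.9% of 17832 genes, 1 fell in both (GSTF3), and GSTF6 fell in flu1-1 ex1 and rose in flu1-5 ex1.

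Most tested genes of both classes rose, and 3 of the 4 members that fell in flu1-1 ex1 and both that fell in flu1-5 ex1 were phi genes. In flu1-1 ex1, 18 of 22 tau genes tested rose and 1 fell, with a median change of 0.70, whereas 5 of 9 phi genes rose and 3 fell, with a median of 0.25. These are 81.8% and 4.55% of the tau genes and 55.6% and 33.3% of the phi genes. Over all genes 44.0% were called higher and 28.6% lower, near the phi shares. In flu1-5 ex1, 20 of 24 tau genes rose and none fell, with a median of 1.07, and 6 of 8 phi genes rose and 2 fell, with a median of 0.58. The shares called higher were 83.3% of tau and 75% of phi, against 38.4% of all genes. For phi, 25% were called lower, against 29.3% of all genes. No test of one class against the other was made. Some members passed the filter of 1 TPM through 1 condition only, so the direction of their change follows from the filter. In flu1-1 ex1 GSTF3 and GSTF14 averaged under 1 TPM in light. GSTU2, GSTU6, GSTU12, GSTU25 and GSTU28 averaged under 1 TPM in dark in both lines, as did GSTU22 in flu1-5 ex1. Such members are part of the class counts and medians given here. These class values depend on the scaling. With quantile normalization the medians were 0.57 for tau and 0.12 for phi in flu1-1 ex1, and 0.94 and 0.62 in flu1-5 ex1. GSTU18 (-0.20, adjusted p = 0.00577) and GSTF2 (-0.11, adjusted p = 0.0267) were then also called lower in flu1-1 ex1. In flu1-5 ex1 GSTU10 (-0.37, adjusted p = 0.0130) and GSTU20 (-0.13, adjusted p = 0.0101) were, so that the lower count there was 4, with 2 tau genes. GSTU10 and GSTU20 also passed in flu1-5 ex1 with the p-value of the authors' deposited table (adjusted p = 0.0323 and 0.000680). A p-value gives no direction, so directions stated with it are those of the log2 changes fitted here. GSTU4 and GSTU18 passed with it in flu1-5 ex1, with changes above 0 (adjusted p = 0.00612 and 0.00551). In flu1-1 ex1 GSTU18 and GSTF2 passed, with changes below 0 (adjusted p = 0.000979 and 0.00124), and GSTU10, above 0 (adjusted p = 0.0437). GSTU2 and GSTF14 in flu1-1 ex1 and GSTF3 in flu1-5 ex1 lost their calls with it (adjusted p = 0.136, 0.0825 and 0.0731). The fitted changes of GSTU10 and GSTU18 had opposite directions in the lines. With quantile normalization those of GSTU10 in flu1-1 ex1 (-0.024) and GSTU18 in flu1-5 ex1 (-0.054) changed sign. On the log2 scale a rise of at least 1 was called for 9 tau and 2 phi genes in flu1-1 ex1, against 11.7% of all genes tested, and for 14 tau genes and 1 phi gene in flu1-5 ex1, against 9.98%. Those tau genes include some whose direction follows from the filter. They are GSTU12, GSTU25 and GSTU28 in both lines, and GSTU2, GSTU6 and GSTU22 in flu1-5 ex1.

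Summed levels were higher in light in both classes. The 28 tau genes together gave 881.0, 880.8 and 873 TPM in dark and 1966, 1976 and 1931 TPM in light in flu1-1 ex1, a 2.23-fold difference of the means. In flu1-5 ex1 they gave 1037, 1016 and 997 TPM in dark and 2329, 2355 and 2367 TPM in light, 2.31-fold. The 11 phi genes gave 1789.8, 1840.2 and 1804 TPM in dark and 2449, 2463 and 2359.7 TPM in light and in flu1-5 ex1 2198, 2168 and 2149.9 TPM in dark and 3237, 3246 and 3287 TPM in light, or 1.34-fold and 1.4995-fold. In both classes each light library lay above each dark library of its line, and each flu1-5 ex1 library lay above each flu1-1 ex1 library of the same treatment.

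**Figure D2:**
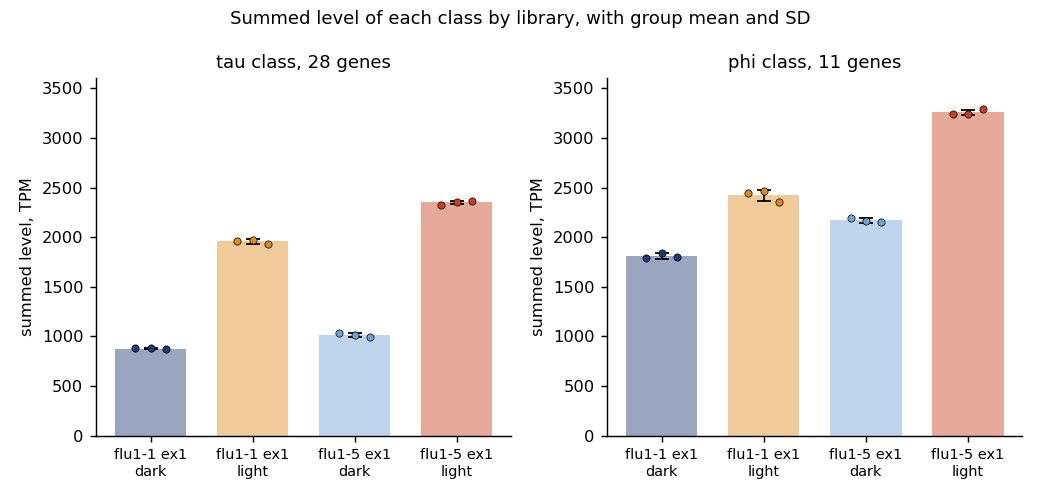
Summed TPM of the 28 tau genes (left) and the 11 phi genes (right) in each group. Points are libraries, bars are means and error bars are the SD of 3 libraries. Tau means are 878 TPM in dark and 1958 TPM in light for flu1-1 ex1, and 1017 and 2350 TPM for flu1-5 ex1.

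The make-up of the summed pools differed between dark and light. GSTU19 held 55.4% ± 0.28 of the summed tau TPM in dark and 40.6% ± 0.49 in light in flu1-1 ex1 (SD, n = 3), and 57.7% ± 0.19 and 43.7% ± 0.46 in flu1-5 ex1. GSTU5 went from 3.26% ± 0.081 to 23.1% ± 0.32 and from 3.27% ± 0.071 to 20.3% ± 0.16. Among the phi genes, GSTF10 kept the largest share, 33.3% to 34.5% of the class in each of the 4 groups. GSTF2 went from 25.2% ± 0.92 to 18.3% ± 0.077 and from 27.2% ± 0.61 to 15.8% ± 0.15. GSTF8 went from 9.92% ± 0.11 to 15.1% ± 0.97 and from 9.48% ± 0.33 to 20.2% ± 0.46. For GSTU19, GSTU5, GSTF2 and GSTF8 the shift from dark to light was several times the SD in both lines.

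**Figure D3:**
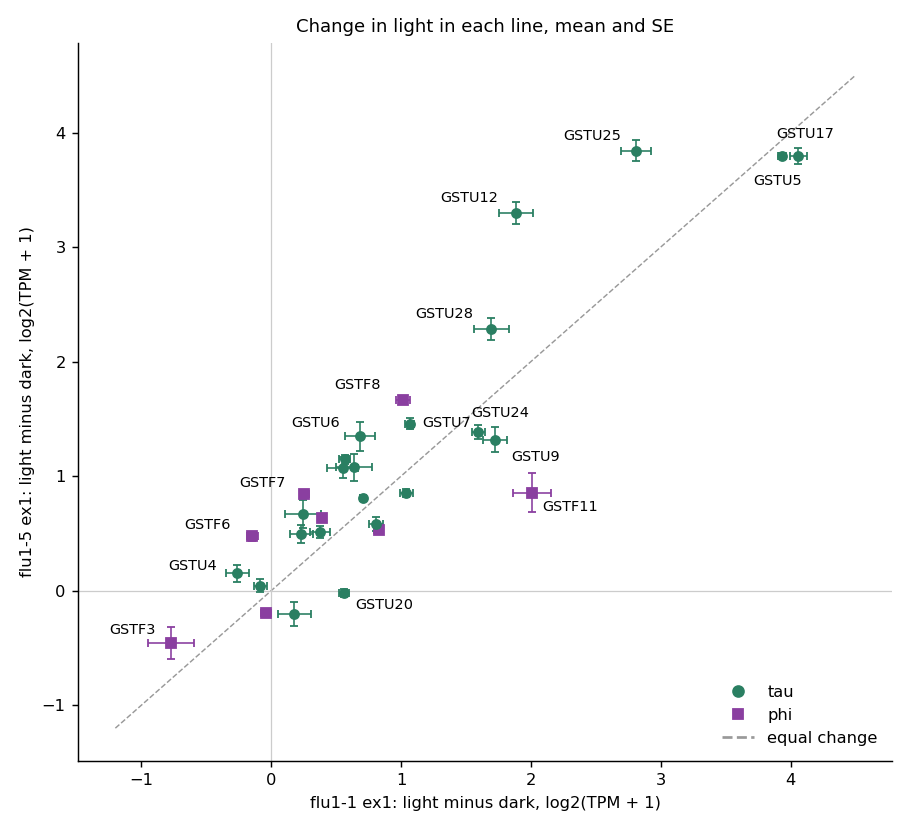
Change in light of each of the 30 members tested in both lines, flu1-1 ex1 on the horizontal axis and flu1-5 ex1 on the vertical axis, both in log2(TPM + 1), with SE bars and tau and phi genes in different colours. The dashed line marks equal change. GSTU5 and GSTU17 lie near the line at about the same large rise, GSTU12 and GSTU25 above it and GSTF11 and GSTU20 below it.

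The largest tandem row, GSTU1 to GSTU7, went as a sum from 119, 119 and 119 TPM in dark to 637, 619.8 and 619.7 TPM in light in flu1-1 ex1 (5.25-fold) and from 159, 145 and 149.6 TPM in dark to 764, 774 and 761 TPM in light in flu1-5 ex1 (5.07-fold). Most of this came from GSTU5. In flu1-1 ex1 GSTU5 (AT2G29450) stood at 29.5, 28.4 and 27.9 TPM in dark and 457, 448 and 448 TPM in light. In flu1-5 ex1 it stood at 33.5, 32.9 and 33.5 TPM in dark and 476, 476 and 476 TPM in light. The mean was 15.8-fold higher in light in flu1-1 ex1 and 14.3-fold higher in flu1-5 ex1, with no overlap of libraries. The log2 change was 3.93 (SE 0.031, adjusted p = 1.07e-11) in flu1-1 ex1 and 3.798 (SE 0.028, adjusted p = 4.30e-12) in flu1-5 ex1.

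In flu1-1 ex1 GSTU7 (AT2G29420), a salicylic acid-responsive gene of the same row, stood at 71.0, 70.6 and 73.5 TPM in dark. In light it stood at 157, 150.0 and 147 TPM. In flu1-5 ex1 it stood at 96.9, 86.4 and 89.6 TPM in dark and 249.99, 259 and 246 TPM in light. Light libraries lay above dark ones in both lines, and flu1-5 ex1 lay above flu1-1 ex1 within each treatment. The change was 1.07 (SE 0.034, adjusted p = 1.32e-08) and 1.46 (SE 0.045, adjusted p = 1.15e-08), and the difference of 0.39 (SE 0.059, adjusted p = 0.000254) between lines passed the test. GSTU6 (AT2G29440) was low, at 0.770, 0.769 and 0.711 TPM in dark and 1.93, 1.86 and 1.65 TPM in light in flu1-1 ex1 and at 0.637, 0.534 and 0.291 TPM in dark and 2.81, 2.89 and 2.60 TPM in light in flu1-5 ex1. It rose by 0.68 (SE 0.12, adjusted p = 0.000635) and 1.35 (SE 0.13, adjusted p = 1.77e-05). GSTU2 (AT2G29480) stood at 0.746, 0.818 and 0.555 TPM in dark and 1.83, 1.29 and 1.86 TPM in light in flu1-1 ex1 and at 0.378, 0.301 and 0.375 TPM in dark and 2.02, 1.75 and 1.79 TPM in light in flu1-5 ex1, with changes of 0.64 (SE 0.14, adjusted p = 0.00327) and 1.08 (SE 0.12, adjusted p = 4.05e-05). The GSTU2 call in flu1-1 ex1 is lost with the p-value of the authors' deposited table, adjusted over the genes tested here (adjusted p = 0.136).

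GSTU4 (AT2G29460) was slightly lower in light in flu1-1 ex1. It stood at 5.85, 7.19 and 6.49 TPM in dark and 5.14, 5.45 and 5.15 TPM in light in flu1-1 ex1 and fell by 0.26 on the log2 scale (SE 0.089, adjusted p = 0.0258). That call is lost when dark replicate 2 or 3 or light replicate 1 or 3 is left out (adjusted p = 0.0593 to 0.0947). In flu1-5 ex1 it stood at 13.2, 10.96 and 12.2 TPM in dark and 13.5, 13.2 and 13.9 TPM in light, with a change of 0.15 (SE 0.073, adjusted p = 0.096). All 6 flu1-5 ex1 libraries lay above all 6 of flu1-1 ex1. GSTU1 rose by 0.38 (SE 0.076, adjusted p = 0.00185) and 0.51 (SE 0.050, adjusted p = 2.22e-05), and GSTU3 stayed under 1 TPM in all libraries.

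In the row GSTU24 (AT1G17170) to GSTU26, GSTU25 (AT1G17180) had a very low dark level and the largest changes. GSTU24 and GSTU25 are known for conjugating the explosive TNT. GSTU25 stood at 0.205, 0.408 and 0.506 TPM in dark and 8.60, 8.75 and 8.38 TPM in light in flu1-1 ex1 and at 0.628, 0.550 and 0.414 TPM in dark and 20.5, 20.2 and 22.1 TPM in light in flu1-5 ex1. Its mean was 23.0-fold higher in light in flu1-1 ex1 and 39.4-fold higher in flu1-5 ex1. The log2 change was 2.81 (SE 0.11, adjusted p = 5.64e-08) and 3.84 (SE 0.091, adjusted p = 2.21e-09). On this scale the rise was larger in flu1-5 ex1 by 1.03 (SE 0.14, adjusted p = 9.75e-05), a call that is lost with a pseudocount of 0.1 (adjusted p = 0.0644). GSTU24 stood at 13.7, 13.4 and 14.7 TPM in dark and 45.2, 43.1 and 43.6 TPM in light in flu1-1 ex1 and at 23.7, 24.9 and 21.0 TPM in dark and 61.7, 61.7 and 63.3 TPM in light in flu1-5 ex1. It rose in both lines, by 1.59 (SE 0.050, adjusted p = 1.09e-08) and 1.39 (SE 0.060, adjusted p = 9.59e-08). GSTU26, the last of the row, rose by 0.23 (SE 0.088, adjusted p = 0.0415) and 0.49 (SE 0.081, adjusted p = 0.000607); in flu1-1 ex1 this call is lost with quantile normalization (0.056, adjusted p = 0.596), with no filter on low genes (adjusted p = 0.0531) and without dark replicate 1 or 3 or light replicate 1 or 2 (adjusted p = 0.0950 to 0.131).

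The pair GSTU11 (AT1G69930) and GSTU12 (AT1G69920) was low in dark. GSTU12 stood at 0.0694, 0.0692 and 0.295 TPM in dark and 3.06, 3.18 and 3.39 TPM in light in flu1-1 ex1 and at 0.497, 0.770 and 0.632 TPM in dark and 15.2, 14.9 and 14.9 TPM in light in flu1-5 ex1. Light and dark libraries were far apart in each line, and in light flu1-5 ex1 lay 4.68-fold above flu1-1 ex1. The mean of GSTU12 in light was 22.2-fold that in dark in flu1-1 ex1 and 23.7-fold in flu1-5 ex1. The log2 change was 1.88 (SE 0.13, adjusted p = 1.84e-06) and 3.30 (SE 0.094, adjusted p = 6.85e-09). The difference between lines was 1.41 (SE 0.15, adjusted p = 1.06e-05) on the log2(TPM + 1) scale. With a pseudocount of 0.1 it was 0.50 and did not pass (adjusted p = 0.385). GSTU11 stood at 0.624, 0.560 and 0.661 TPM in dark and 1.09, 1.84 and 0.973 TPM in light in flu1-1 ex1, where its mean stayed under the filter, and at 1.27, 0.944 and 1.198 TPM in dark and 4.42, 3.56 and 3.84 TPM in light in flu1-5 ex1. It rose by 1.21 (SE 0.12, adjusted p = 1.99e-05) in flu1-5 ex1. The difference of its responses was 0.72 (SE 0.20, adjusted p = 0.0146), and it too is lost with a pseudocount of 0.1 (adjusted p = 0.0877).

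GSTU17 (AT1G10370) and GSTU18 (AT1G10360) overlap by 71 bases on the same strand and are 74.9% identical in protein. GSTU17 is known as EARLY RESPONSIVE TO DEHYDRATION 9 and takes part in light signalling and drought responses. It stood at 4.64, 4.64 and 5.52 TPM in dark and 96.4, 100.4 and 96.2 TPM in light in flu1-1 ex1 and at 5.68, 4.86 and 4.69 TPM in dark and 85.2, 79.2 and 84.8 TPM in light in flu1-5 ex1. The mean in light was 19.8-fold and 16.4-fold above that in dark. The log2 change of 4.06 (SE 0.064, adjusted p = 2.02e-10) in flu1-1 ex1 was the largest of any member there, and in flu1-5 ex1 it was 3.79 (SE 0.069, adjusted p = 4.83e-10). The change differed between lines by -0.27 (SE 0.099, adjusted p = 0.06), which did not pass the test. GSTU18 stood between 45.6 and 53.4 TPM in all 12 libraries, with overlapping groups and changes of -0.084 (SE 0.049, adjusted p = 0.149) and 0.044 (SE 0.055, adjusted p = 0.502). Both changes passed with the p-value of the authors' deposited table.

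In the row GSTU19 (AT1G78380) to GSTU23 the most abundant tau gene rose moderately. GSTU19 stood at 491, 488 and 481 TPM in dark and 790.3, 813 and 782 TPM in light in flu1-1 ex1 and at 598, 588 and 573 TPM in dark and 1010.0, 1025 and 1047 TPM in light in flu1-5 ex1. Light libraries lay above dark ones in each line without overlap. The change was 0.71 (SE 0.024, adjusted p = 2.01e-08) and 0.81 (SE 0.027, adjusted p = 2.01e-08). GSTU20 (AT1G78370), known as FIN219-INTERACTING PROTEIN 1 and linked to jasmonate signalling and glucosinolate synthesis, stood at 81.5, 77.2 and 74.9 TPM in dark and 116, 118 and 112 TPM in light in flu1-1 ex1 and at 67.3, 71.3 and 69.7 TPM in dark and 67.5, 68.3 and 69.9 TPM in light in flu1-5 ex1. It rose in flu1-1 ex1, by 0.56 (SE 0.039, adjusted p = 1.96e-06), and did not pass the test in flu1-5 ex1, where the change was -0.019 (SE 0.036, adjusted p = 0.666) and the groups overlapped. The difference of -0.58 (SE 0.052, adjusted p = 3.31e-06) between lines passed the test. GSTU22 (AT1G78340) stood at 0.449, 0.256 and 0.340 TPM in dark and 0.790, 1.18 and 1.00 TPM in light in flu1-1 ex1, where it was under the filter, and at 0.656, 0.388 and 0.454 TPM in dark and 2.34, 1.93 and 1.74 TPM in light in flu1-5 ex1, a rise of 1.00 (SE 0.13, adjusted p = 0.000162). GSTU23 did not pass in flu1-1 ex1, at 0.25 (SE 0.14, adjusted p = 0.141), and rose by 0.67 (SE 0.12, adjusted p = 0.0012) in flu1-5 ex1. GSTU21 stayed under 1 TPM in all libraries.

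In the pairs GSTU13 (AT1G27130) with GSTU14 and GSTU15 with GSTU16 (AT1G59700), 1 gene of each pair carried nearly all of the level. GSTU13, an enzyme of indole glucosinolate metabolism, stood at 37.2, 40.7 and 39.3 TPM in dark and 59.2, 58.0 and 57.5 TPM in light in flu1-1 ex1 and at 39.6, 37.7 and 39.1 TPM in dark and 86.4, 90.1 and 85.3 TPM in light in flu1-5 ex1. Dark libraries of the lines overlapped, and light libraries of flu1-5 ex1 lay above those of flu1-1 ex1. The change was 0.57 (SE 0.042, adjusted p = 2.85e-06) and 1.15 (SE 0.038, adjusted p = 1.77e-08), and the difference was 0.58 (SE 0.055, adjusted p = 4.81e-06). GSTU16 stood at 36.2, 33.6 and 32.1 TPM in dark and 72.8, 71.7 and 68.1 TPM in light in flu1-1 ex1 and at 41.3, 39.4 and 40.8 TPM in dark and 74.9, 73.1 and 73.9 TPM in light in flu1-5 ex1. It rose by 1.04 (SE 0.051, adjusted p = 1.82e-07) and 0.85 (SE 0.036, adjusted p = 7.48e-08). Neither GSTU14 nor GSTU15 reached 0.3 TPM in any library.

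**Figure D4:**
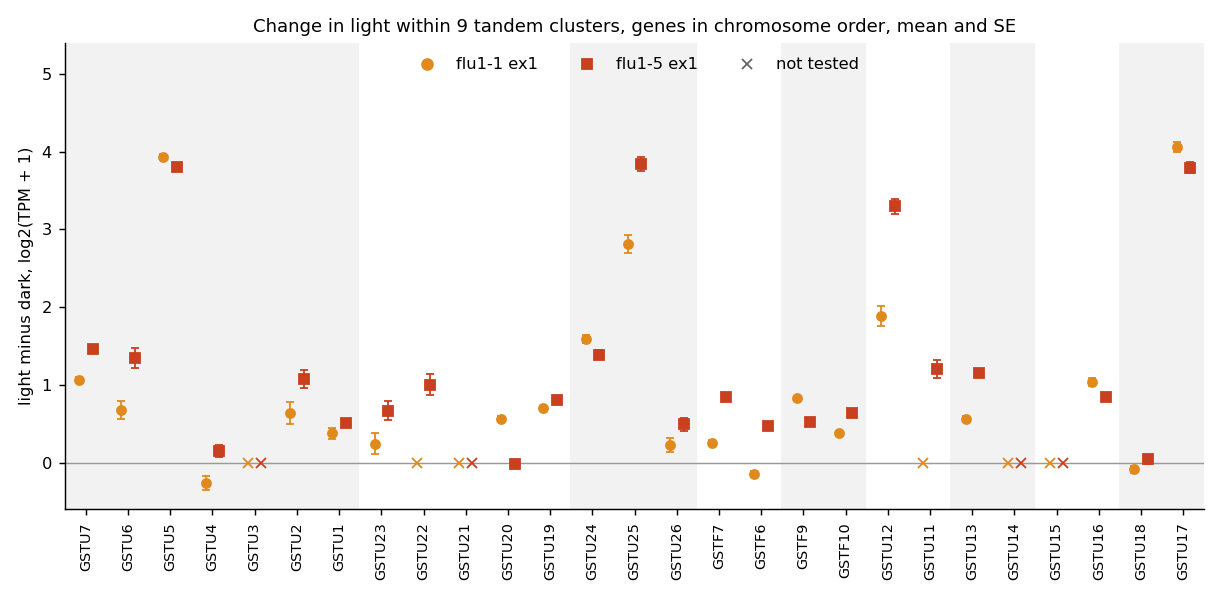
Change in light of each gene in the 9 tandem clusters, shaded in turn, with genes in chromosome order, as log2(TPM + 1) differences with SE. Circles are flu1-1 ex1, squares are flu1-5 ex1 and crosses on the zero line mark genes not tested. GSTU5, GSTU25, GSTU12 and GSTU17 stand far above their neighbours.

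Of the 5 tau genes at single loci, 4 rose in both lines. GSTU9 (AT5G62480) stood at 1.48, 1.33 and 1.42 TPM in dark and 6.68, 6.66 and 7.55 TPM in light in flu1-1 ex1 and at 1.89, 2.14 and 2.21 TPM in dark and 5.80, 7.61 and 6.71 TPM in light in flu1-5 ex1. Light libraries of the lines overlapped. It rose by 1.72 (SE 0.094, adjusted p = 3.95e-07) and 1.32 (SE 0.11, adjusted p = 7.97e-06). GSTU28 (AT1G53680) stood at 0.927, 0.512 and 0.550 TPM in dark and 3.89, 4.39 and 4.84 TPM in light in flu1-1 ex1 and at 0.741, 0.622 and 0.627 TPM in dark and 7.32, 6.85 and 7.13 TPM in light in flu1-5 ex1. It rose by 1.70 (SE 0.14, adjusted p = 4.85e-06) and 2.28 (SE 0.095, adjusted p = 7.18e-08). GSTU8 (AT3G09270) stood at 5.68, 4.46 and 5.75 TPM in dark and 9.47, 7.14 and 8.10 TPM in light in flu1-1 ex1 and at 7.04, 6.97 and 5.83 TPM in dark and 14.97, 16.3 and 13.7 TPM in light in flu1-5 ex1, and it rose by 0.55 (SE 0.12, adjusted p = 0.00304) and 1.07 (SE 0.092, adjusted p = 8.69e-06). GSTU27 rose in both lines, from 31.1 ± 1.69 to 55.2 ± 3.39 TPM in flu1-1 ex1 and 31.1 ± 2.51 to 47.0 ± 1.67 TPM in flu1-5 ex1 (SD, n = 3). GSTU10 passed the test in neither line, with changes of 0.18 (SE 0.12, adjusted p = 0.22) and -0.21 (SE 0.11, adjusted p = 0.113). With the p-value of the authors' deposited table both were called.

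The phi genes moved in different directions. GSTF8 (AT2G47730), a stress marker gene whose promoter has long been used as a reporter, rose most among the abundant ones. It stood at 179.7, 181 and 179 TPM in dark and 389.8, 376 and 331 TPM in light in flu1-1 ex1 and at 202, 213 and 203 TPM in dark and 661, 637 and 671 TPM in light in flu1-5 ex1. Light and dark libraries did not overlap, and in light flu1-5 ex1 lay 1.80-fold above flu1-1 ex1. The change was 1.02 (SE 0.055, adjusted p = 5.82e-07) and 1.67 (SE 0.033, adjusted p = 7.76e-10), and the difference of 0.65 (SE 0.069, adjusted p = 1.43e-05) passed the test.

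GSTF10 (AT2G30870) stood at 618, 619 and 636 TPM in dark and 804, 825 and 827 TPM in light in flu1-1 ex1 and at 740.0, 692 and 739 TPM in dark and 1116, 1145 and 1109.8 TPM in light in flu1-5 ex1. It rose by 0.39 (SE 0.024, adjusted p = 8.58e-07) and 0.63 (SE 0.032, adjusted p = 2.81e-07), more in flu1-5 ex1 by 0.24 (SE 0.040, adjusted p = 0.000515). Its neighbour GSTF9 (AT2G30860), 80.0% identical in protein, stood at 312, 315 and 302 TPM in dark and 564, 565 and 522 TPM in light in flu1-1 ex1 and at 322, 311 and 313 TPM in dark and 447, 450.0 and 466 TPM in light in flu1-5 ex1. It rose by 0.83 (SE 0.036, adjusted p = 9.24e-08) and 0.53 (SE 0.029, adjusted p = 4.49e-07), less in flu1-5 ex1, with a difference of -0.30 (SE 0.047, adjusted p = 0.000354). The 2 neighbours differed between lines in opposite directions.

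GSTF6 (AT1G02930), which joins glutathione to an indole precursor in camalexin synthesis, stood at 157, 164 and 172 TPM in dark and 143, 151 and 151 TPM in light in flu1-1 ex1 and at 234, 248 and 227 TPM in dark and 325, 324 and 336 TPM in light in flu1-5 ex1. It fell by 0.14 in flu1-1 ex1 (SE 0.039, adjusted p = 0.00942) and rose by 0.47 (SE 0.038, adjusted p = 5.28e-06) in flu1-5 ex1. The difference was 0.62 (SE 0.056, adjusted p = 3.64e-06). GSTF7 (AT1G02920) stood at 69.0, 73.1 and 71.1 TPM in dark and 85.5, 86.5 and 82.8 TPM in light in flu1-1 ex1 and at 98.7, 96.3 and 92.8 TPM in dark and 173, 172 and 173 TPM in light in flu1-5 ex1. It rose in both lines, by 0.25 (SE 0.035, adjusted p = 0.000171) and 0.84 (SE 0.032, adjusted p = 4.48e-08), with a difference of 0.59 (SE 0.045, adjusted p = 7.12e-07). Since the estimate may be split between these near-identical copies, their sum was also taken. It was 226, 237 and 243 TPM in dark and 229, 237 and 234 TPM in light in flu1-1 ex1, with overlapping groups, and 333, 344 and 319.8 TPM in dark and 498, 496 and 509 TPM in light in flu1-5 ex1, without overlap.

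GSTF2 (AT4G02520) stood at 448, 482 and 439 TPM in dark and 450.0, 449 and 434 TPM in light in flu1-1 ex1 and at 597, 602 and 571 TPM in dark and 507, 512 and 525 TPM in light in flu1-5 ex1. The change of -0.038 (SE 0.037, adjusted p = 0.378) did not pass the test in flu1-1 ex1, whereas in flu1-5 ex1 it fell by 0.20 (SE 0.030, adjusted p = 0.000389), with every light library below every dark one. Its near copy GSTF3 was low and fell in both lines, from 1.85 ± 0.43 to 0.68 ± 0.32 TPM in the first and 2.04 ± 0.18 to 1.23 ± 0.34 TPM in the second (SD, n = 3), and the call in flu1-5 ex1 is lost when dark replicate 1 or light replicate 3 is left out (adjusted p = 0.0561 and 0.0551). The sum of both was 449.9, 484 and 441 TPM in dark and 450.4, 449.9 and 435 TPM in light in flu1-1 ex1 and 599.5, 604 and 573 TPM in dark and 509, 514 and 526 TPM in light in flu1-5 ex1.

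GSTF11 (AT3G03190), an enzyme of aliphatic glucosinolate synthesis, was low in dark. It stood at 1.46, 2.18 and 1.21 TPM in dark and 10.4, 8.33 and 9.52 TPM in light in flu1-1 ex1 and at 1.17, 1.89 and 1.51 TPM in dark and 4.68, 2.89 and 3.21 TPM in light in flu1-5 ex1. Light libraries of flu1-1 ex1 lay above those of flu1-5 ex1 without overlap. It rose by 2.01 (SE 0.15, adjusted p = 2.63e-06) and 0.85 (SE 0.17, adjusted p = 0.00188). GSTF14 fell in flu1-1 ex1, from 1.47 ± 0.17 to 0.78 ± 0.21 TPM (SD, n = 3, adjusted p = 0.0122), a call lost with the p-value of the authors' deposited table (adjusted p = 0.0825), and was under the filter in flu1-5 ex1.

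The next comparison asked whether the light response differed between the lines, as an interaction over all 12 libraries. Of 31 members tested, 14 rose more or fell less in flu1-5 ex1 and 7 the reverse, against 11.3% and 18.3% of 17830 genes tested. The tau class gave 10 and 4 of 23, and the phi class 4 and 3 of 8. The median difference was 0.26 for the members and -0.056 over all genes. With quantile normalization the split was 15 against 3, for which no share over all genes was computed. The median difference was then 0.38 for the members and -0.035 over all genes. The largest differences toward flu1-5 ex1 were those of GSTU12, GSTU25, GSTU11, GSTU6 (0.66, SE 0.15, adjusted p = 0.00598) and GSTF8, and those toward flu1-1 ex1 were those of GSTF11 (-1.15, SE 0.24, adjusted p = 0.0028) and GSTU20. Among smaller ones, GSTU4 gave 0.41 (SE 0.11, adjusted p = 0.0136), GSTU8 0.52 (SE 0.16, adjusted p = 0.0263) and GSTU28 0.59 (SE 0.16, adjusted p = 0.0126), the last lost with a pseudocount of 0.1 (adjusted p = 0.0918). With that pseudocount the calls of GSTU12, GSTU25 and GSTU11 are lost too (adjusted p = 0.385, 0.0644 and 0.0877).

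Several of these calls were narrow. GSTU9 (-0.40, SE 0.14, adjusted p = 0.0443), GSTU16 (-0.19, SE 0.062, adjusted p = 0.0345), GSTU19 (0.10, SE 0.035, adjusted p = 0.045), GSTF2 (-0.16, SE 0.049, adjusted p = 0.0276) and GSTU8 lost the call when single libraries were left out, in 10, 9, 9, 8 and 6 of 12 cases. Their adjusted p then reached at most 0.105, 0.0804, 0.106, 0.0684 and 0.0637. GSTU9 kept the call only without flu1-5 ex1 dark replicate 1 or light replicate 2. GSTU5 differed by -0.13 (SE 0.038, adjusted p = 0.0172), and with quantile normalization this turned to 0.058 (adjusted p = 0.266). GSTF2 likewise turned to 0.028 (adjusted p = 0.708). GSTU2 and GSTU24 did not pass, at 0.44 (SE 0.17, adjusted p = 0.0653) and -0.21 (SE 0.080, adjusted p = 0.0704). GSTU2 passed with quantile normalization, with no filter and with a pseudocount of 0.1 (adjusted p = 0.0426, 0.0462 and 0.0330). GSTU24 passed without dark replicate 3 of flu1-1 ex1 or flu1-5 ex1 (adjusted p = 0.0425 and 0.00928). So did GSTU17 (adjusted p = 0.0152 and 0.0380), which also passed with a pseudocount of 5 (adjusted p = 0.0182). GSTU23 and GSTU27 passed in some cases with 1 library left out.

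**Figure D5:**
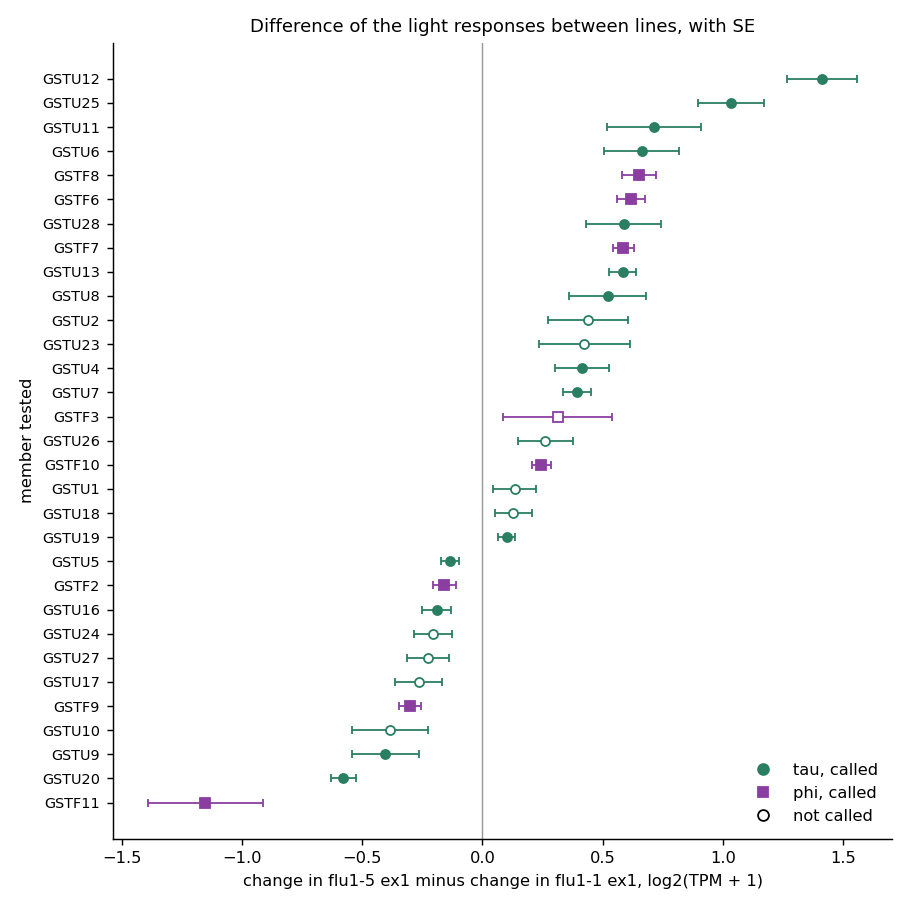
Difference of the light responses, flu1-5 ex1 minus flu1-1 ex1, in log2(TPM + 1), for the 31 members tested, ordered by size, with SE bars. Filled symbols passed the test and open ones did not. GSTU12 (1.41) and GSTU25 (1.03) lie at the top and GSTF11 (-1.15) at the bottom. The calls of GSTU12 and GSTU25 are lost with a pseudocount of 0.1 (adjusted p = 0.385 and 0.0644).

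The lines were also compared within each treatment. In dark, 14 of 31 members were higher in flu1-5 ex1 and 2 lower, against 14.7% and 5.68% of 17830 genes. The median difference of the members was 0.19, against 0.038 over all genes. GSTU4 differed most, by 0.80 (SE 0.079, adjusted p = 8.29e-06), followed by GSTU24 with 0.70 (SE 0.056, adjusted p = 1.30e-06), GSTF6 with 0.52 (SE 0.040, adjusted p = 7.67e-07) and GSTU12 with 0.52 (SE 0.10, adjusted p = 0.00306). In dark GSTU12 averaged only 0.144 TPM in flu1-1 ex1 and 0.633 TPM in flu1-5 ex1. It passed the filter of 1 TPM through its light libraries. GSTF7, GSTF2, GSTU7 and GSTU19 were higher by 0.43, 0.37, 0.34 and 0.27. The 2 lower ones were GSTU20 (-0.16, SE 0.037, adjusted p = 0.0072) and GSTU23 (-0.41, SE 0.13, adjusted p = 0.0487), and the GSTU23 call is lost when any of 8 libraries is left out (adjusted p = 0.0586 to 0.182), which are all but flu1-1 ex1 dark replicate 1 and light replicates 2 and 3 and flu1-5 ex1 dark replicate 2. None of the differences in dark reached 1 on the log2 scale.

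In light, 18 of 31 members were higher in flu1-5 ex1 and 5 lower, against 18.1% and 21.0% of 17830 genes. The median difference was 0.42 for the members and -0.020 over all genes. The 6 that were higher by at least 1 were GSTU12 (1.93, SE 0.10, adjusted p = 5.99e-09), GSTU4 (1.22, SE 0.079, adjusted p = 4.46e-08), GSTU25 (1.19, SE 0.097, adjusted p = 4.47e-07), GSTF6 (1.14, SE 0.040, adjusted p = 8.48e-11), GSTU11 (1.12, SE 0.14, adjusted p = 2.55e-05) and GSTF7 (1.01, SE 0.032, adjusted p = 3.16e-11). GSTF8 was higher by 0.85 (SE 0.049, adjusted p = 1.48e-08) and GSTU8 by 0.80 (SE 0.11, adjusted p = 8.61e-05). The 5 lower members were GSTF11 (-1.198, SE 0.17, adjusted p = 8.26e-05), GSTU20 (-0.74, SE 0.037, adjusted p = 3.04e-09), GSTF9 (-0.27, SE 0.033, adjusted p = 2.12e-05), GSTU17 (-0.23, SE 0.070, adjusted p = 0.0181) and GSTU27 (-0.23, SE 0.062, adjusted p = 0.0102). The call of GSTU17 is lost when light replicate 2 of either line is left out (adjusted p = 0.0638 and 0.0724). GSTU5 differed by 0.077 (SE 0.027, adjusted p = 0.0374), and this call is lost when any 1 of the 6 light libraries is left out. Of the 31 tested, 12 members were higher in flu1-5 ex1 in both dark and light, 7 of them tau and 5 phi, against 6.83% of 17830 genes.

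Other genes of glutathione use were read from the same tests. Of 23, 19 were tested, and 10 rose and 6 fell in light in flu1-1 ex1, and 9 rose and 4 fell in flu1-5 ex1. These are 52.6% and 31.6% of those tested in flu1-1 ex1 and 47.4% and 21.1% in flu1-5 ex1, near the shares of 44.0% and 28.6% and of 38.4% and 29.3% over all genes. ABCC2, a vacuolar transporter of glutathione conjugates, rose in flu1-1 ex1 (18.6 ± 0.96 TPM in dark, 53.7 ± 2.85 TPM in light; SD, n = 3) and in flu1-5 ex1 (20.8 ± 1.73 and 58.0 ± 3.04 TPM). GR1, a glutathione reductase, rose as well, in flu1-1 ex1 (54.7 ± 3.69 and 119.9 ± 5.01 TPM) and in flu1-5 ex1 (61.4 ± 1.301 and 122 ± 3.06 TPM). GSH2, glutathione synthetase, fell in both lines, from a dark level of 214 ± 2.85 to 128 ± 2.06 TPM and of 225 ± 3.29 to 165 ± 1.96 TPM. GGT1, which breaks down extracellular glutathione, fell from 22.7 ± 0.79 to 12.6 ± 0.42 TPM in flu1-1 ex1 and rose from 23.2 ± 0.38 to 25.9 ± 1.34 TPM in flu1-5 ex1. GSTT3, of the theta class, fell in both lines, from 11.5 ± 1.19 to 7.29 ± 0.42 TPM in flu1-1 ex1 and 11.03 ± 0.10 to 7.11 ± 0.40 TPM in flu1-5 ex1. The phi genes outside the set, GSTF4 and GSTF5, stood at means of 5.69 and 0.48 TPM over the 12 libraries, and GSTF4 passed the test in neither line.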

How the data were processed

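Total RNA from Arabidopsis seedlings was read on a DNBSEQ-T7 instrument, as the labels state. The deposited tables, 1 per line, hold the authors' transcript-level TPM values for 6 libraries each, with 1 transcript listed per gene, and a p-value per gene for light against dark. Per the submitters' processing notes, kallisto 0.46.2, sleuth 0.30.0 and the build TAIR10 were used, with no role given for each. TPM keeps no read depth, so depth and counting error are unknown. Reads from near-identical or overlapping genes can be shared out by the quantification.

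The tables were joined by gene. For each line, and over all 12 libraries for comparisons between lines, genes averaging 1 TPM or more in the libraries compared were kept, log2(TPM + 1) was taken, and limma 3.58.1 (R 4.3.3, statmod 1.5.0; trend and robust settings) was fitted to all genes, with Benjamini-Hochberg adjustment over them and a threshold of 0.05. On this scale the fold change of low genes is understated. The members and the gene lists were chosen with earlier results of these data known. Values in every library are given for members that were called with a change of at least 1 in some comparison, and for the 2 most abundant of each class. GSTU1, GSTU10, GSTU18, GSTU20, GSTU23, GSTU26, GSTU27, GSTF3, GSTF9 and GSTF14 were named outside this rule, after their values were seen. Grouping follows the library descriptions, since the genotype field does not separate the alleles. Comparisons of the light response use different libraries in each line, whereas the difference of responses and the comparisons of the lines reuse them. The alternatives were quantile normalization, no filter or a filter at 5 TPM, 0.1 or 5 as the pseudocount, the authors' deposited p-value, a replicate block and leaving out each library. Sequences and positions come from RefSeq TAIR10.1, whose 5 nuclear chromosomes have the lengths of TAIR10. All 39 members matched it. Protein identities were computed with Biopython 1.88. The fits were tested on simulated data.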

Additional observations from a re-analysis of the deposited data

Results flagged for a closer look

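For 21 members the light response differed between the lines in the interaction test (limma, adjusted p under 0.05). The values are differences in log2(TPM + 1), flu1-5 ex1 minus flu1-1 ex1. In the row GSTU1 to GSTU7 they were 0.41 for GSTU4, -0.13 for GSTU5, 0.66 for GSTU6 and 0.39 for GSTU7. For the other tau genes they were 0.52 for GSTU8, -0.40 for GSTU9, 0.72 for GSTU11, 1.41 for GSTU12, 0.58 for GSTU13, -0.19 for GSTU16, 0.10 for GSTU19, -0.58 for GSTU20, 1.03 for GSTU25 and 0.59 for GSTU28. For the phi genes they were -0.16 for GSTF2, 0.62 for GSTF6, 0.59 for GSTF7, 0.65 for GSTF8, -0.30 for GSTF9, 0.24 for GSTF10 and -1.15 for GSTF11. Within tandem rows the sign differed between GSTU5 and its called neighbours, between GSTU19 and GSTU20, and between GSTF9 and GSTF10. For GSTU5 and GSTF2 the sign itself depends on the normalization. The calls of GSTU11, GSTU12, GSTU25 and GSTU28 are lost with a pseudocount of 0.1.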

How the results depend on the processing

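Over 33 members, 2440 values under an alternative were compared with the main ones. Of these 2284 kept their direction and their side of the threshold, 93 lost a call, 35 gained one and 28 changed sign, 2 of them for a called value. Those 2 were the differences of response of GSTU5 and GSTF2, which went to 0.058 and 0.028 with quantile normalization. The same normalization gave -0.024 for GSTU10 in light in flu1-1 ex1, -0.054 for GSTU18 in flu1-5 ex1, -0.038 for GSTU17 and -0.072 for GSTU28 between lines in dark, and -0.016 for GSTU23 between lines in light. When each library was left out in turn, the sign of 10 values, none of them called with all libraries, was not fixed, with those of GSTU17, GSTU28 and GSTU23 above again among them. The light change lay between -0.065 and 0.0013 for GSTF2 in flu1-1 ex1 and between -0.041 and 0.00058 for GSTU20 in flu1-5 ex1. Between lines in dark it ranged from -0.036 to 0.10 for GSTU17, -0.0015 to 0.21 for GSTF3, -0.042 to 0.021 for GSTU13, -0.056 to 0.12 for GSTU28, -0.16 to 0.10 for GSTF11 and -0.064 to 0.042 for GSTU27. Between lines in light it ranged from -0.072 to 0.14 for GSTU23 and -0.13 to 0.036 for GSTU9. The cause of these shifts was not tested.

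Counts of members called higher stayed within 1.5 times the main count in all 5 comparisons. Members lower in light in flu1-1 ex1 went from 4 to 2 with a mean of at least 5 TPM, a filter that tests fewer members. In flu1-5 ex1 the lower count of 2 went to 4 with quantile normalization and to 1 with a mean of at least 5 TPM, and lay between 1 and 2 without single libraries. For the difference of responses the lower count of 7 went to 3 with quantile normalization and lay between 4 and 7 without single libraries. For the lines in dark the lower count of 2 went to 1 with a mean of at least 5 TPM or a pseudocount of 5 and lay between 1 and 3 without single libraries. With the authors' deposited p-value 23 members were higher and 5 lower in flu1-1 ex1, and 28 and 3 in flu1-5 ex1, by the direction fitted here. No share over all genes was computed for the counts under an alternative.

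Deviations of dark and light libraries of the same number had r of 0.017, 0.024 and 0.14 in flu1-1 ex1. In flu1-5 ex1 they had r of 0.014, -0.044 and -0.0058. Pairs of unlike number lay between -0.078 and 0.058 in flu1-1 ex1 and between -0.032 and 0.038 in flu1-5 ex1. These values cannot decide whether libraries of 1 number were grown or handled together, and the main fits used no pairing. With a replicate block the counts higher and lower were 23 and 4 in flu1-1 ex1 and 26 and 2 in flu1-5 ex1. For the difference of responses they were 13 and 6, where GSTU19 and GSTU9 were lost. A block over all 12 libraries, added after seeing the data because a block within each line leaves no estimate between lines, gave 14 and 2 in dark and 18 and 5 in light. The counts with a block also have no share over all genes beside them. TPM carries no depth, so no counting interval or detection limit could be given.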
